A study of Mus musculus with 4 samples.

Results

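The complement genes described here are 9 genes chosen by name: the chains of the starter protein C1q (C1qa, C1qb and C1qc), the central component C3, the alternative pathway genes Cfb and Cfp, the receptor gene C3ar1, and the membrane regulators Cd55 and Cd59a. Of these 9, 8 were analysed among the 17476 genes of the count table, and 7 passed the filter on low counts that left 14239 genes. Cfb had too few reads to be tested, and Cd59a was not analysed here. The RNA came from myeloid-derived suppressor cells (MDSCs), a mix of immature granulocytes and monocytes able to dampen T cell responses, and the series compared Trem2 mutant MDSCs with wild-type (WT) ones in their genes and pathways. Trem2 is a receptor of myeloid cells that senses lipids. The labels give the strain C57BL/6 for every library, with the genotype WT or Trem2 mutant, and no source used here states the kind of mutation. In both groups, MDSCs were grown from bone marrow in culture and given to NRG males that were 6 weeks old when challenged under the skin with TRAMP-C1 mouse prostate tumour cells. The MDSCs were given 4 weeks after the challenge, tumours were taken 6 h later, and CD45+, CD11b+, GR1+ cells were taken by flow sorting. NRG mice lack lymphocytes but have their own myeloid cells, and the gate named no marker of the injected cells, so an unknown share of the RNA came from the recipients. Each genotype had 2 libraries, called here WT 1, WT 2, Trem2 mutant 1 and Trem2 mutant 3 by their column names. The number in the column name of Trem2 mutant 3 matches no sample title, so that library was placed by the genotype in its name alone. No label says that they came from separate cultures or animals, so a p-value here covers only library-to-library spread, which may be technical.

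Complement is a cascade of plasma and cell-surface proteins that tags targets for uptake and recruits leukocytes. The classical pathway starts when C1q, a hexamer of A, B and C chain trimers, binds antibody or dying cells. The alternative pathway runs on C3 itself, with factor B (Cfb) forming its convertase and properdin (Cfp) stabilising it, and every route meets at the cleavage of C3. C3ar1 is the receptor of the fragment C3a. Cd55 (decay-accelerating factor) takes convertases apart, and Cd59a blocks the membrane attack complex. Macrophages are a main source of C1q, and neutrophils store properdin in their granules.

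Positions are those of GENCODE M21 on GRCm38. The C1q genes lie side by side on the minus strand of chromosome 4 within 18.7 kb: C1qb (ENSMUSG00000036905) from 136880129 to 136886187, C1qc (ENSMUSG00000036896) from 136889804 to 136893065 and C1qa (ENSMUSG00000036887) from 136895917 to 136898803. C3 (ENSMUSG00000024164) spans 57203970 to 57228136 on the minus strand of chromosome 17, 8.85 Mb from Trem2, and Cfb (ENSMUSG00000090231) spans 34856374 to 34862518 on the same chromosome and strand, 13.5 Mb from Trem2. Cd55 (ENSMUSG00000026399) spans 130439027 to 130462744 on the minus strand of chromosome 1. C3ar1 (ENSMUSG00000040552) lies on the minus strand of chromosome 6 from 122847138 to 122856161, and Cfp (ENSMUSG00000001128) on the minus strand of chromosome X from 20925454 to 20931555.

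The bases upstream of 4 members are shown because 2 of the 3 C1q genes, whose reads moved together, C3, the member with the highest level, and Cd55, the member with the largest change, have an entry in the RefSeq promoter table (build GRCm38.p6). That table matched 7 of the 9 members. Each sequence ends at the base before the RefSeq start, except that of C1qc, which stops where the GENCODE gene begins. They run 5′ to 3′ on the minus strand, and capitals mark matches, on either strand, to the motifs named below.
C1qb, chr4:136886201-136886450: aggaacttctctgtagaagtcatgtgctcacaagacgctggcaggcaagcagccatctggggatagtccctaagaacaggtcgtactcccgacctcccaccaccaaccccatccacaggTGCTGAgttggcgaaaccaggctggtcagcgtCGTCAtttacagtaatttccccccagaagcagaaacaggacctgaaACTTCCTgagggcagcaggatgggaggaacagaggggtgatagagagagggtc
C1qc, chr4:136893066-136893164: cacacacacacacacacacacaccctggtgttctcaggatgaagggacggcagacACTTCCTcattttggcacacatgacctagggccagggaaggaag
C3, chr17:57228137-57228386: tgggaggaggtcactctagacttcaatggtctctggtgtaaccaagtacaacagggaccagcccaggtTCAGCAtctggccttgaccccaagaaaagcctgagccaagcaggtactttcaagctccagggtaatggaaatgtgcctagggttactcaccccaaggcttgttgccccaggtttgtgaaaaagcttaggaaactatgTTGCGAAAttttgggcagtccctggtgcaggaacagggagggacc
Cd55, chr1:130462745-130462994: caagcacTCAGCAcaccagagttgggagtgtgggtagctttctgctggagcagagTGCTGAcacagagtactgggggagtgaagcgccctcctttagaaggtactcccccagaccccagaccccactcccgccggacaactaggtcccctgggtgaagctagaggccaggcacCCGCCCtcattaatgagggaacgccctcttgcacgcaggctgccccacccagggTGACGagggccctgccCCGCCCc

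The motifs were chosen with the values of these genes known, and their matches describe letters, not binding. AGGAAGT, the core bound by the myeloid factor PU.1, was found once upstream of C1qb, 53 to 47 bases before the start, and once upstream of C1qc, 195 to 189 bases before it. It was found in none of the other 5 member windows of 250 bases, and 7.69% of 32851 such windows of the table hold it. TGCTGA, part of the site of the MAF factors, was found once upstream of C1qb, C3 and C3ar1 and at 2 places upstream of Cd55, and 16.1% of the windows hold it. TTGCNNAA, part of the site of C/EBP factors, was found among the member windows only upstream of C3, as TTGCGAAA from 45 to 38 bases before the start, and 9.56% of windows hold it. GGGCGG, the GC box, matched at 2 places upstream of Cd55, and also in the unprinted part of the C1qc window and in that of C3ar1 (32.7% of windows). TGACG, part of the site of cyclic AMP response factors, matched upstream of C1qb and Cd55 (17.8% of windows). No 2 matches in the printed sequences overlapped. The Cd55 window was 64.0% G and C with 8 CpG, that of C3 52.0% with 1 CpG, and the medians of all windows were 52.4% and 6 CpG.

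Total counts ran from 8037733 to 8077966 reads in the WT libraries and from 9820893 to 10306674 in the mutant libraries. One locus that overlaps ribosomal RNA, Gm42418, held 13.9% of all reads in Trem2 mutant 1 and at most 1.04% in any other library. Trem2 itself fell in the mutant libraries, with 22.9 and 21.0 CPM (counts scaled to a common library size by the trimmed mean of M values, TMM) against 44.2 and 52.2 in WT 1 and WT 2 (log2 fold change −1.14, SE 0.13, edgeR quasi-likelihood test, adjusted p = 0.00157). Of the gate's genes, Ptprc (CD45) and Itgam (CD11b) were abundant in all 4 libraries. Ly6g, which with Ly6c2 encodes the antigens bound by GR1 antibodies, had 5.66 and 7.22 CPM in WT and 144 and 123 CPM in the mutant libraries, and Ly6c2 had 26.9 and 24.8 against 378 and 282 CPM. The macrophage receptor gene Csf1r had 846 and 864 CPM in WT and 704 and 701 CPM in the mutant libraries. The gate's granulocyte antigen gene was thus low in the libraries labelled WT. Other neutrophil markers ranged widely there, from Camp at 2.61 and 1.86 CPM to Mmp8 at 2188 and 2025 CPM. Ngp and Ltf had at most 32.4 and 51.1 CPM in WT. The 15 on the list summed to 8474 and 8393 CPM in WT and 35771 and 30133 CPM in the mutant libraries. The 13 macrophage markers summed to 2849 and 2903 CPM in WT and 2383 and 2232 CPM in the mutant libraries, with Cd163 at most at 2.99 CPM and Mertk at most at 9.58 CPM in any library. The WT libraries had 5 reads of Xist, which female cells make, and the mutant libraries 16045, so the sex of the cells' donors moved with genotype. Its part in the results below, among them those of X-linked Cfp, was not tested.

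Marker lists of other cell types also moved with genotype. Beside the counts below stand the shares over all genes tested, 9.55% higher and 3.6% lower. The summed CPM of 15 neutrophil markers went from 8393 to 8474 in WT to 30133 to 35771 in the mutant libraries, with 14 higher and 0 lower. That of 10 monocyte markers went from between 1341 and 1403 to between 5156 and 6232 (7 higher and 0 lower of 9 tested). Within it, Chil3 alone went from 161 and 168 CPM to 4200 and 2884 CPM, and Ccr2 and Cx3cr1 did not pass. The sum of 8 eosinophil markers went from between 99.8 and 101 to between 211 and 239 (6 higher of 6 tested). That of 11 fibroblast markers went from between 130 and 177 to between 482 and 509 (6 higher and 0 lower of 9 tested). The sum of 13 macrophage markers was 2849 to 2903 in WT and 2232 to 2383 in the mutant libraries, with 2 higher and 2 lower. Of 9 platelet and erythroid markers, 3 of 8 tested were higher and 0 lower (sums of 49.4 to 75.4 and 117 to 209 CPM). None of 6 tested dendritic cell markers, of 9, passed (61.9 to 81.6 and 76.2 to 111 CPM), nor any of 4 tested T, NK and B cell markers, of 8 (12.6 to 13.1 and 7.79 to 11.5 CPM). Of 7 epithelial markers, 1 of 2 tested was lower (154 to 161 and 85.8 to 88.4 CPM), almost all of it Cdh1. In bulk libraries, fewer cells of a type and less RNA per cell cannot be told apart, and the part of these shifts in the complement results was not tested.

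Of the 7 members tested, 4 were higher in the mutant libraries and 0 lower: C1qa, C1qb, C1qc and Cd55 (edgeR quasi-likelihood test, adjusted p under 0.05). Over all genes tested, 9.55% were higher and 3.6% lower. C3, Cfp and C3ar1 did not pass. The groups did not overlap for any of the 7, which was also so for 60.5% of all genes tested.

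**Figure D1:**
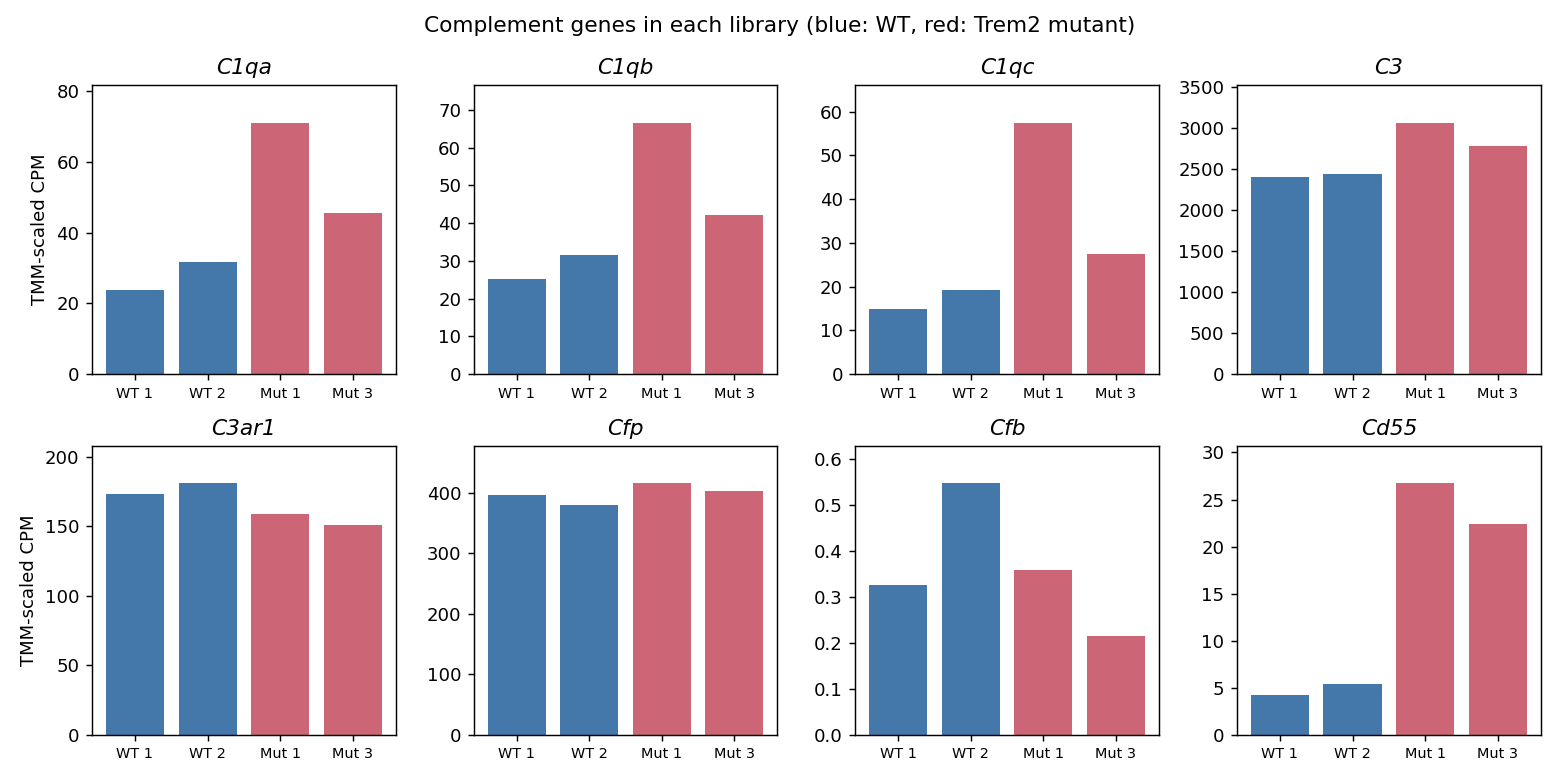
TMM-scaled CPM (y axis, from 0) of 8 complement genes in each library (x axis), with WT in blue and Trem2 mutant (Mut) in red. The C1q chains and Cd55 are higher in both mutant libraries, with Trem2 mutant 1 above Trem2 mutant 3, while C3, C3ar1 and Cfp stay near their WT level and Cfb is close to the floor of 3 reads.

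The C1q chains all rose, by 1.91-fold to 2.49-fold. C1qa, the A chain, had 23.8 and 31.6 CPM in WT 1 and WT 2 and 71.2 and 45.7 CPM in Trem2 mutant 1 and Trem2 mutant 3, from 219, 289, 594 and 425 reads. The mutant libraries were both above the WT libraries but far from each other, Trem2 mutant 1, the library rich in Gm42418 reads, being the highest. The fold was 2.10, from 27.7 ± 5.52 to 58.4 ± 18.0 CPM (SD, n = 2 each; log2 fold change 1.07, SE 0.22, edgeR adjusted p = 0.0186). C1qb, the B chain, had 25.2 and 31.6 CPM in WT and 66.6 and 42.2 CPM in the mutant libraries. Its order of libraries was that of C1qa, and its fold was 1.91 (log2 fold change 0.93, SE 0.21, edgeR adjusted p = 0.0284).

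C1qc, the C chain, had 14.8 and 19.2 CPM in WT and 57.5 and 27.4 CPM in Trem2 mutant 1 and Trem2 mutant 3. It had the same order of libraries and the widest gap between the mutant libraries. Its fold was 2.49 (log2 fold change 1.32, SE 0.32, edgeR adjusted p = 0.035), and its call was lost with DESeq2 (adjusted p = 0.133) and with limma-voom (adjusted p = 0.0642). Within a library, where scaling cancels out, the level per length of C1qa was 0.988 and 1.05 times that of C1qb in WT and 1.12 and 1.13 times in the mutant libraries. That of C1qc was 0.330 and 0.341 times that of C1qb in WT, 0.486 times in Trem2 mutant 1 and 0.366 times in Trem2 mutant 3. With the longest transcript as the length, which shortens C1qc from 1931 to 1203 bases, the C1qc ratios were 0.530, 0.548, 0.781 and 0.587 in the same order. The A and B chains thus kept nearly equal levels, and C1qc was below C1qb in every library by either length, least so in Trem2 mutant 1. An exact permutation test of 2 libraries against 2 cannot give a p below 0.333, so these ratios carry no test.

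The calls of the C1q chains were lost without WT 1, and that of C1qc also without WT 2. With a lone WT library the spread within a group came from the mutant libraries alone. A lost call there does not show that the result rested on the values of the WT library left out. Without WT 1 only Cd55 among the members was called higher, where 3.25% of all genes were, and C1qa (log2 fold change 0.88, adjusted p = 0.115), C1qb (0.78, adjusted p = 0.167) and C1qc (1.14, adjusted p = 0.175) did not pass by edgeR. Without WT 2 3 members passed (4.8% of all genes), and C1qc did not (1.51, adjusted p = 0.067). Without Trem2 mutant 1 all 4 still passed (9.98% of all genes), with log2 fold changes of 0.73 for C1qa, 0.58 for C1qb and 0.70 for C1qc. Without Trem2 mutant 3 the same 4 and C3 passed (14.2% of all genes), and the values were 1.38, 1.25 and 1.78. The size of the C1q change therefore depended on which mutant library was used, while its sign did not.

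**Figure D2:**
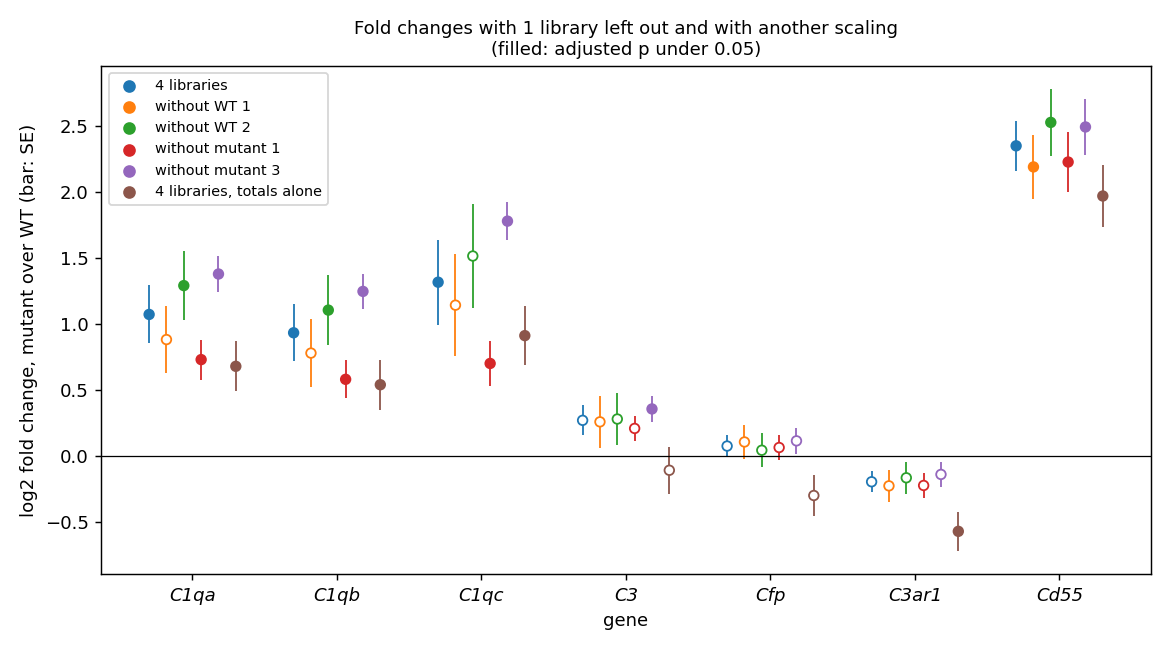
Log2 fold change of mutant over WT with its SE (y axis) for the 7 tested members (x axis), with all 4 libraries, with each library left out in turn, and scaled by library totals alone. Filled points passed an edgeR adjusted p of 0.05; Cd55 lies between 1.97 and 2.53 over the settings drawn, and the C1q points are open without WT 1.

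The C1q chains rose, while of the 13 macrophage markers 2 rose, 2 fell and 9 did not pass. Adgre1 (F4/80) had 372 and 386 CPM in WT and 336 and 323 CPM in the mutant libraries, and its log2 fold change of −0.20 did not pass (edgeR adjusted p = 0.150), nor did that of Csf1r at −0.28 (adjusted p = 0.0784). Trem2 and Gpnmb fell, and Apoe and Fcgr1 rose. The summed CPM of the C1q chains was 2.24% and 2.84% of that of the 13 macrophage markers in WT 1 and WT 2, and 8.19% and 5.17% in Trem2 mutant 1 and Trem2 mutant 3. This share, set up after the values were seen, was higher in both mutant libraries.

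**Figure D3:**
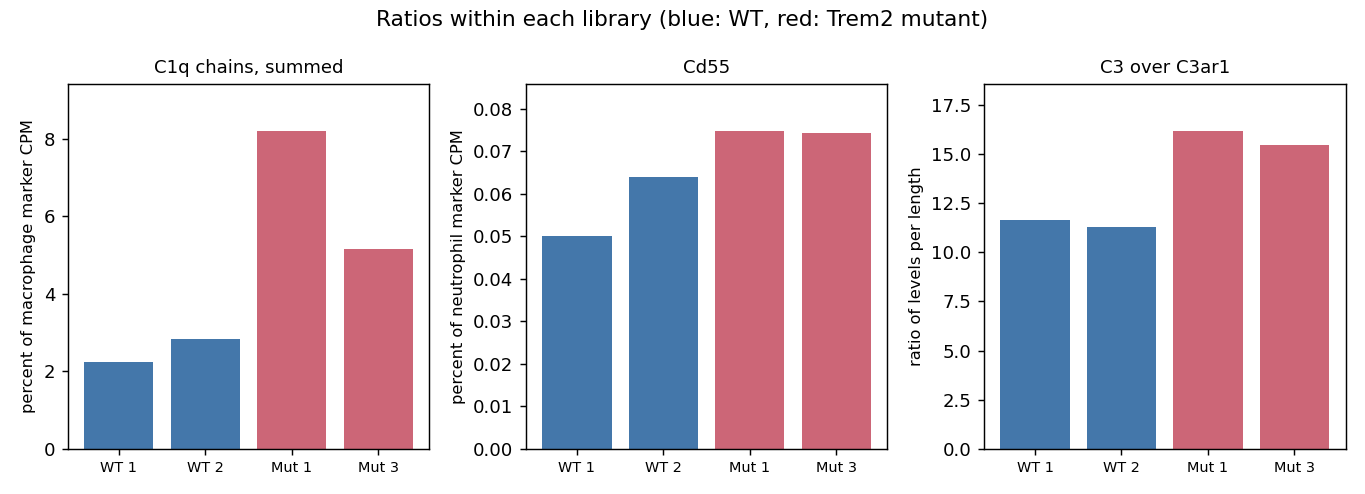
Ratios within each library, which do not depend on scaling (y axes, from 0; WT in blue, Trem2 mutant, Mut, in red): the summed C1q CPM as a percent of the summed macrophage marker CPM, Cd55 CPM as a percent of the summed neutrophil marker CPM, and the level per length of C3 over that of C3ar1. The C1q share goes from at most 2.84% in WT to at least 5.17%, the Cd55 share from at most 0.0639% to at least 0.0742%, and the C3 ratio from at most 11.6 to at least 15.5.

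C3, on which all routes converge, was the most abundant member by far, and its change did not pass. It had 2404 and 2440 CPM in WT and 3061 and 2780 CPM in the mutant libraries, from 22098, 22294, 25553 and 25867 reads. Both mutant libraries were above both WT libraries by a small margin. The fold was 1.21 (log2 fold change 0.27, SE 0.11, 95% interval 0.005 to 0.54 before adjustment, edgeR adjusted p = 0.160). Scaled by library totals alone the direction flipped, to −0.11. Without Trem2 mutant 3 it passed (0.36, adjusted p = 0.0183).

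Cfb, the convertase protease of the alternative pathway, had 3, 5, 3 and 2 reads in WT 1, WT 2, Trem2 mutant 1 and Trem2 mutant 3. All but that of WT 2 were at or under the floor of 3 reads, which corresponds to 0.322 to 0.359 CPM, so no fold is given. Of the 75-base windows in Cfb transcripts, 69.9% are also in transcripts of Gm20547, a gene model that overlaps Cfb on the same strand. Reads from those windows cannot be assigned to Cfb alone, and no source used here states how such reads were counted. The low count of Cfb therefore does not show how much Cfb RNA there was. The neighbouring convertase gene C2, 85 bases away, had 5, 2, 1 and 4 reads.

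Cfp, properdin, was the next most abundant member and did not pass. It had 397 and 380 CPM in WT and 415 and 404 CPM in the mutant libraries. The log2 fold change was 0.08 (SE 0.08, 95% interval −0.12 to 0.27, edgeR adjusted p = 0.583), and scaled by library totals alone it flipped to −0.30 (adjusted p = 0.124).

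C3ar1, the C3a receptor, was slightly lower in both mutant libraries without passing. It had 173 and 181 CPM in WT and 159 and 151 CPM in the mutant libraries (log2 fold change −0.20, SE 0.08, 95% interval −0.38 to −0.01 before adjustment, edgeR adjusted p = 0.146). Scaled by library totals alone it passed as lower (−0.57, adjusted p = 0.00664), the 1 member that did, where 30.7% of all genes were lower and 4.56% higher. Within each library the level per length of C3 was 11.6 and 11.3 times that of C3ar1 in WT and 16.2 and 15.5 times in the mutant libraries. This ratio, which does not depend on scaling, was higher in both mutant libraries and carries no test.

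Cd55, the decay-accelerating factor gene, showed the largest change of the members. It had 4.24 and 5.36 CPM in WT 1 and WT 2 and 26.7 and 22.4 CPM in Trem2 mutant 1 and Trem2 mutant 3, from 39, 49, 223 and 208 reads. The groups were far apart relative to the spread within them. The fold was 5.09, from 4.80 ± 0.79 to 24.5 ± 3.08 CPM (SD, n = 2 each; log2 fold change 2.35, SE 0.19, 95% interval 1.91 to 2.79, edgeR adjusted p = 4.26e-04). It passed under all 13 alternatives, with log2 fold changes from 1.97 (library totals alone) to 2.53 (without WT 2).

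Neutrophil markers moved with Cd55. S100a8 went from 1201 and 1143 CPM to 6722 and 5780 CPM, and Ly6g from 5.66 and 7.22 to 144 and 123 CPM. Against the summed neutrophil markers, Cd55 stood at 0.0501% and 0.0639% in WT and at 0.0747% and 0.0742% in the mutant libraries. The share was higher in both mutant libraries, by less than Cd55 itself. Its direction depends on the markers summed, since their folds ran from 1.06 for Csf3r, which did not pass, to 98.7 for Ltf, against 5.09 for Cd55. The part of the neutrophil shift in the Cd55 result was not tested. Of the 75-base windows in Cd55 transcripts, 5.53% are shared with its paralog Cd55b, 16.0 kb away, which was not analysed here. The antisense gene Gm16083 overlaps Cd55 and had 5, 2, 8 and 7 reads, and no source used here states whether the counting used strand. None of the 75-base windows of the C1q, C3, C3ar1 or Cfp transcripts occurs in a transcript of another gene.

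Levels of different genes were set side by side as TMM-scaled CPM per kb of exon. In WT the order was C3 (471 ± 5.02), Cfp (224 ± 6.83), C3ar1 (41.1 ± 1.24), C1qa (26.7 ± 5.31), C1qb (26.1 ± 4.16), C1qc (8.79 ± 1.60), Cd55 (0.990 ± 0.163) and Cfb (0.155 ± 0.0553; SD, n = 2). C1qa and C1qb did not differ beyond their spread, and the other neighbours down to Cd55 did. The place of Cfb is not read as a level, since most of its sequence is shared with Gm20547. In the mutant libraries the order was C3 (568 ± 38.6), Cfp (236 ± 4.84), C1qa (56.2 ± 17.3), C1qb (50.0 ± 15.8), C3ar1 (35.9 ± 1.32), C1qc (22.0 ± 11.0), Cd55 (5.06 ± 0.64) and Cfb (0.102 ± 0.0362). There C1qb could not be told apart from C1qa or from C3ar1 by their spread. Both C1qa and C1qb were above C3ar1 in each mutant library and below it in each WT library. With the longest transcript as the length, C1qc stood at 14.1 in WT and 35.3 in the mutant libraries, and Cd55 at 1.53 and 7.83.

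**Figure D4:**
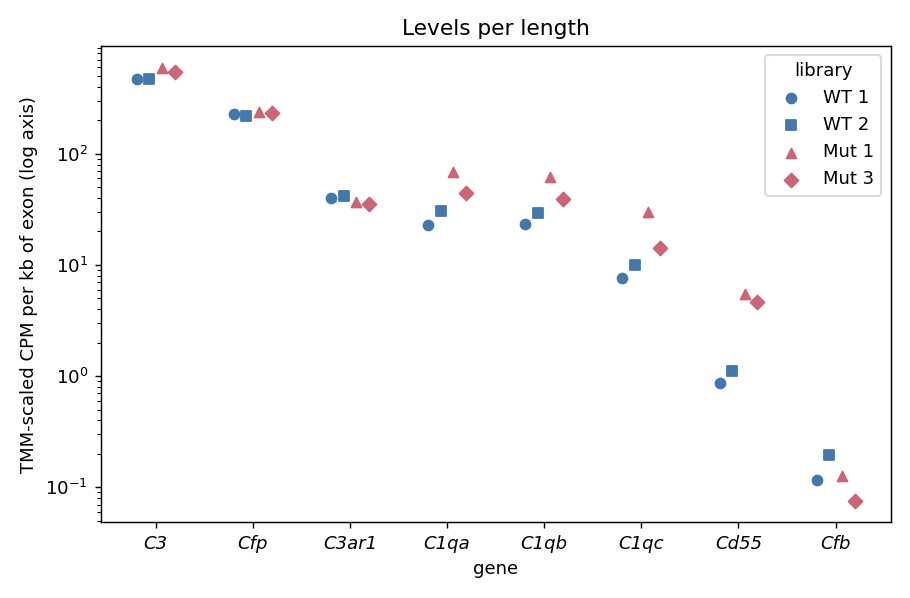
Level per length (TMM-scaled CPM per kb of exon, log axis) of 8 complement genes (x axis), 1 point per library, with WT in blue and Trem2 mutant (Mut) in red. C3 and Cfp lie above all other members in every library, and C1qa and C1qb lie below C3ar1 in WT and above it in the mutant libraries.

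The profile over the 4 libraries was compared between members and 9185 other protein-coding genes with a mean of at least 5 CPM, by the root mean square difference of centred log2 CPM. Nearest to C1qa were Cenpe (0.0209) and Zdhhc14 (0.0303), nearest to C1qb were Tns1 (0.055), Kif15 (0.0571) and Tgm1 (0.059), and nearest to C1qc were Aspm (0.0826), Igfbp4 (0.105) and Top2a (0.109). Nearest to C3 were Flot1 (0.0108), Atg7 (0.0109) and 9530068E07Rik (0.0112), and nearest to Cfp were Zfp36l1 (0.0044), Serinc1 (0.00568) and Mon1b (0.00871). Nearest to Cd55 were Ggt1 (0.0531), Pknox2 (0.0748) and Chil1 (0.0758). With 4 libraries many genes come close to any profile, so these are descriptions.

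The rest of the pathway was read from a list of 58 complement genes that includes the members, of which 36 were analysed and 27 tested. Of the 27, 11 were higher, 1 was lower and 15 did not pass, where 9.55% of all genes tested were higher and 3.6% lower. The median log2 fold change was 0.39, against −0.02 for all genes tested. Without the members, 7 of 20 were higher and 1 lower. In the initiating steps, C1rl, a relative of the protease C1r, rose 1.39-fold (log2 fold change 0.48, SE 0.11, edgeR adjusted p = 0.0315). Its call was lost without either WT library, with DESeq2 and with library totals alone. C1ra, the C1r protease itself, had 15, 15, 17 and 26 reads and did not pass. C1s1, its partner protease, was too low to be tested, with 2 and 0 reads in WT and 5 and 16 reads in Trem2 mutant 1 and Trem2 mutant 3, a ratio of 10.9 (95% exact interval 2.66 to 95.9, counting error only).

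Fcnb, ficolin B, a lectin-pathway recognition molecule of myeloid cells, rose from 3 and 2 reads in WT to 157 and 84 reads in Trem2 mutant 1 and Trem2 mutant 3, a ratio of 50.0 (95% exact interval 21.2 to 156, counting error only; edgeR adjusted p = 0.0011). It passed under all 13 alternatives, and its WT reads are at or under the floor. Masp2, the lectin-pathway protease gene, and C4b did not pass, at log2 fold changes of −0.26 and 0.89. Among the terminal components, Hc (which encodes C5) and C8g were tested at about 1 CPM and did not pass.

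Of the membrane regulators tested that are not among the 9 genes, Cd46 stood at a log2 fold change of −0.06 (SE 0.14, 95% interval −0.39 to 0.27) and Cr1l, the rodent regulator Crry, at 0.16 (SE 0.10, 95% interval −0.07 to 0.38), and neither passed. Vtn and Susd4 had at most 5 reads in any library.

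Among the receptors for complement fragments, 3 of 6 tested rose and 0 fell, where 9.55% of all genes tested were higher and 3.6% lower. C5ar1, the C5a receptor that draws neutrophils, rose 1.96-fold, with 296 and 330 CPM in WT and 597 and 628 CPM in the mutant libraries (log2 fold change 0.97, SE 0.09, edgeR adjusted p = 8.94e-04), and it passed under all 13 alternatives. The other C5a receptor gene, C5ar2, had a log2 fold change of 0.39 and did not pass (adjusted p = 0.0624), nor did C3ar1 at −0.20. Itgam and Itgb2, the chains of complement receptor 3, rose 1.52-fold and 1.59-fold (adjusted p = 0.00429 and 0.00618). Itgax, the alpha chain of complement receptor 4, had a log2 fold change of −0.34 and did not pass (adjusted p = 0.0587). Both integrin calls were lost without WT 1 and with library totals alone, and that of Itgb2 also without WT 2.

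Of 4 genes whose proteins bind C1q, Calr (calreticulin) rose 1.30-fold, Lrp1 fell by 0.69 on the log2 scale (adjusted p = 0.00586), and Cd93 and C1qbp did not pass. The call of Lrp1 was lost without WT 1 and without WT 2. That of Calr was lost without WT 1, without WT 2, without Trem2 mutant 1 and with upper-quartile scaling, and with library totals alone its log2 fold change was −0.01, so its direction depends on the scaling.

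**Figure D5:**
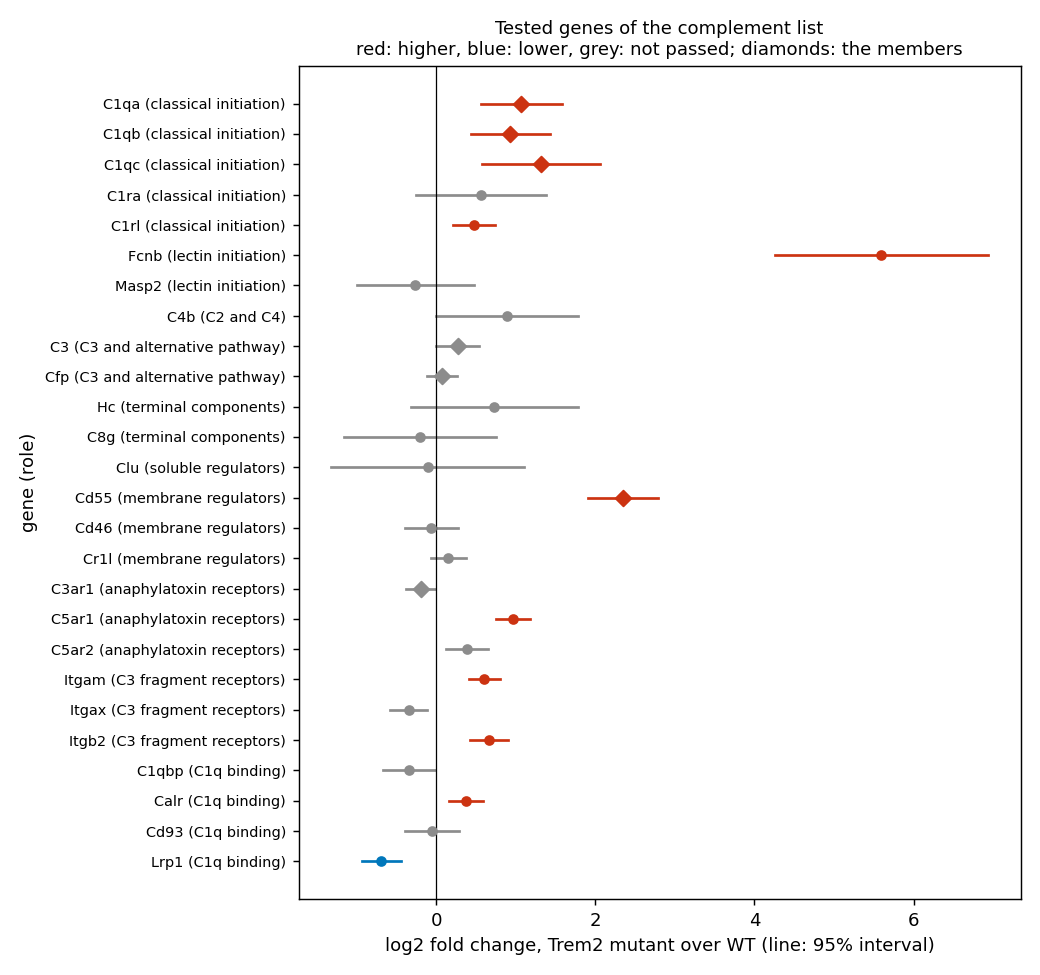
Log2 fold change of Trem2 mutant over WT with its 95% interval (x axis) for 26 tested genes of the complement list (y axis, with their role). Diamonds are the members described above; red genes were higher and blue ones lower at an edgeR adjusted p of 0.05, with Fcnb farthest to the right and Cd55 next.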

How the data were processed

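RNA from 4 libraries (2 WT, 2 Trem2 mutant) was depleted of ribosomal RNA and sequenced for 75 cycles, per the labels' protocols. The authors deposited raw read counts by Ensembl gene. The submitters' processing notes name FastQC, STAR 2.5.2a, DESeq2 and the build GRCm38 (mm10), and no source used here states the counter, its strand setting or the annotation. The lowest row total was 11 reads. GENCODE M21 named 17422 IDs and 54 were unmatched.

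Counts were filtered with filterByExpr, TMM-scaled and tested with edgeR 4.0.16 (R 4.3.3; glmQLFit legacy form, glmQLFTest, two-sided, genotype only), with Benjamini-Hochberg adjustment over 14239 genes at 0.05. The SE is the log2 fold change over the root of F, and 95% intervals use 7.71 degrees of freedom, of which 2 are residual. Total counts of 8037733 to 10306674 put the floor of 3 reads at 0.322 to 0.359 CPM, counting error only. The test was tried on simulated data. Alternatives were RLE, upper-quartile and library-total scaling, no filter, a stricter filter (10 reads in 2 libraries and a mean of 1 CPM), DESeq2 1.42.0, limma-voom (limma 3.58.1), bias-adjusted glmQLFit, leaving out 2499 noncoding and mitochondrial genes, and leaving out each library; a lone library was then taken to vary as the other group does.

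Members and lists were chosen with earlier results of these data known. Named genes were the members, complement-list genes that passed or had at most 3 reads in each library of a group, Trem2, Adgre1, Csf1r, Ly6g, S100a8 and the 3 nearest profiles of 6 members. Added after their values were seen were Gpnmb, Apoe, Fcgr1, Cd163, Mertk, Cdh1, Ly6c2, Chil3, Ccr2, Cx3cr1, Mmp8, Camp, Ngp, Ltf, Csf3r, Ptprc, Xist, Gm42418, Gm20547, Gm16083, Cd55b and the complement genes that did not pass. Some genes under this rule are not reported here, though the counts include them.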

Additional observations from a re-analysis of the deposited data

How the results depend on the processing

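Of the members, 4 were higher and 0 lower under RLE, upper-quartile scaling, both other filters, the bias-adjusted fit and without noncoding and mitochondrial genes. With DESeq2 and limma-voom, 3 were higher and 0 lower. Over all genes, RLE gave 1442 higher and 474 lower of 14239, and the bias-adjusted fit 1376 and 514. The fit with no filter gave 1337 and 479 of 17476, and the stricter filter 1337 and 508 of 14111. Without noncoding and mitochondrial genes there were 1373 and 532 of 12569. DESeq2 gave 1044 and 205 of 14087, and limma-voom 1324 and 475 of 14239. Scaled by library totals alone, 4 were higher and 1 lower. The median over all genes tested then moved from −0.02 to −0.40, and C3 (−0.11), Cfp (−0.30) and Calr (−0.00551) changed direction. Leaving out each library in turn gave 1 to 5 members higher. On the complement list, 11 genes were higher and 1 lower, where 9.55% and 3.6% of all genes tested were. Library totals gave 7 and 5, where 4.56% of all genes were higher and 30.7% lower. Upper-quartile scaling gave 9 and 2, where 1219 of 14239 genes were higher and 672 lower. Leaving out each library gave 3 to 14 higher and 0 to 2 lower. Without WT 1, 3 were higher, without WT 2, 6, and 0 were lower in both. The 2 macrophage markers that were higher became 1 to 4 with a library left out, and neutrophil markers stayed between 11 and 14 of 15 under every alternative. The cause of these shifts was not tested. Few reads kept Cfb, C2, C1s1, Fcna, Vtn, Susd4, Cr2, Vsig4 and C4a out of the filtered fit. For Cfb, the sequence shared with Gm20547 may also limit the count. No paired analysis was possible because the columns of both genotypes share only the number 1.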
